A study of Mus musculus with 16 samples.

Results

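Expression of 10 mouse genes of liver fat storage was followed in the livers of db/db mice, an obese and diabetic strain with a defective leptin receptor and a fatty liver. The genes were chosen by name as the nuclear receptor gene Pparg and genes of fatty acid uptake, triglyceride synthesis and the lipid droplet surface, namely Cd36, Fabp4, Mogat1, Cidea, Cidec, Plin2, Plin4, Plin5 and G0s2. All 10 were among the 40324 gene symbols of the deposited count table, and all 10 were among the 14476 genes with enough counts to be tested. The control group was 8 db/db mice injected with adeno-associated virus 8 (AAV8) encoding GFP, and the other group was 8 db/db mice injected with AAV8 encoding arcA. Littermates were injected at about 5 weeks of age, and all livers were taken at 10 weeks of age, 5 weeks after injection. The db/db genotype and an AAV8 injection were thus common to both groups. The labels name neither the promoter that drove the transgenes nor the product of arcA.

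Fat is stored in cells as triglyceride in lipid droplets, whose surface carries perilipin and CIDE proteins. PPARG, the product of Pparg, is the master regulator of fat cell formation. It is weakly expressed in a healthy liver and becomes more abundant in fatty liver, where it activates fat cell genes in hepatocytes. It binds DNA together with an RXR partner at a direct repeat of a short half-site, and genes of lipid uptake and droplet coating are among its classical targets.

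Libraries held 28912563 to 53520828 counts in the GFP group and 37325610 to 45874797 in the arcA group. Levels are given as CPM, the usual depth-normalised count, after scaling by trimmed mean of M-values (TMM), which adjusts for differences in library composition. The transcript Gm42418, which overlaps ribosomal RNA sequence, took 2.29% to 19.4% of counts in GFP livers and 2.45% to 7.37% in arcA livers, with 11.8%, 18.1% and 19.4% in GFP 2, GFP 3 and GFP 5. Hepatocyte markers were abundant in every library, with sums of 93019 to 105208 CPM in GFP and 101595 to 122698 CPM in arcA livers over the 15 markers found. The labels name 16 separate livers but no litter or batch.

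One gene of the 10, Plin4, passed the test, and it was lower in arcA livers. This was 1 of 10 genes, beside 10.8% of all 14476 tested genes that passed in either direction (6.57% lower and 4.26% higher). The test was edgeR's quasi-likelihood F test with Benjamini-Hochberg adjustment over all genes, at a threshold of 0.05. Plin4 had 1.93 times the level in GFP as in arcA livers, and Cidec 2.49 times, but Cidec did not pass (adjusted p = 0.0579). In bulk liver, fewer cells of a type and less RNA per cell cannot be told apart. The fitted log2 fold change of arcA over GFP was below 0 for 9 of the 10 genes and above 0 for Cd36, whose sign turned when libraries were scaled on hepatocyte markers. The median over the 10 genes was -0.22, beside 0.0091 over all genes tested, and was -0.14 without GFP 7. With surrogate variables (5 hidden factors estimated from the data) as terms of the fit, the value was below 0 for 4 of the 10, and their median was 0.023.

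**Figure D1:**
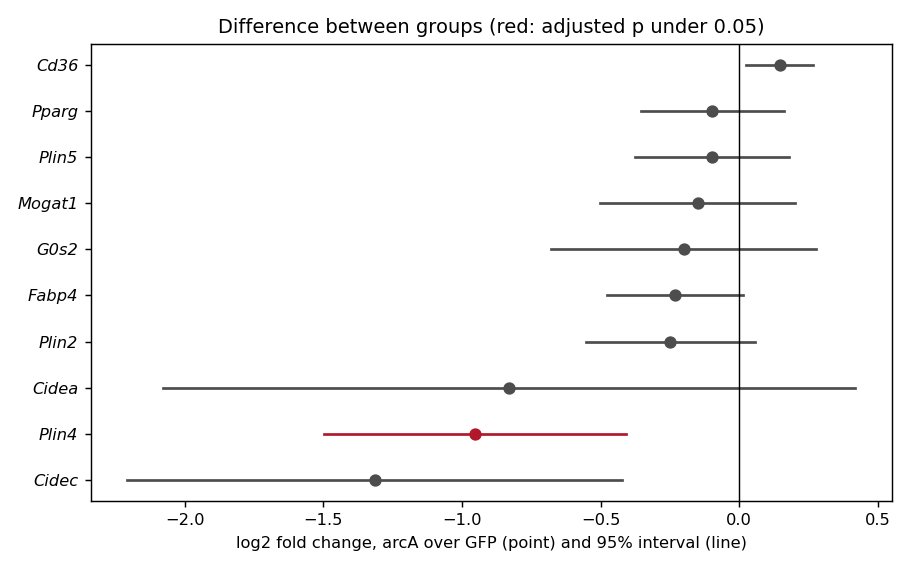
Fitted log2 fold change of arcA over GFP (horizontal axis, log2 scale) for each of the 10 genes, with the 95% interval of the edgeR fit as a line (n = 8 livers in each group). The interval of Plin4 (red, adjusted p = 0.0260) runs from -1.50 to -0.41 and that of Cidec from -2.21 to -0.42, while those of Pparg, Plin5, G0s2, Mogat1, Fabp4, Plin2 and Cidea include 0.

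PPARG acts through its response element, a direct repeat spaced by a single base, so the promoters of the genes are shown where the search for that repeat bears on them. The sequences are RefSeq promoter windows of build GRCm38.p6, each running from 250 bases before to 50 bases after an annotated start, and 8 of the 10 genes had at least one window that could be shown, 12 windows in all. The motif searched, on both strands, was the half-site AGGTCA followed by any 1 base and by AGGTCA again. None of the 12 windows held it exactly or with 1 mismatch, beside 0.0396% and 0.554% of 32851 windows of all genes. With 2 mismatches allowed, Plin2, Cd36 and Mogat1 had a match, 3 of 12 windows beside 3.86% of all windows. Windows within 3 mismatches, 7 of the 12, compare with 24.6% of all windows. The closest stretch in the Plin4 window and in the second Cidec window had 4 mismatches, a number that 79.8% of all windows reach, and that in the first Cidec window had 3. Shown are the windows of Plin2, Cd36 and Mogat1, because they came nearest to the motif, and of Plin4 and Cidec, because these had the largest fitted differences among the genes above 1 CPM. They are given 5′ to 3′ on the strand of the gene, with the stretch closest to the motif in capitals. A match of letters is a description and not a binding site.
Plin4 promoter, chr17:56109733-56110032, minus strand: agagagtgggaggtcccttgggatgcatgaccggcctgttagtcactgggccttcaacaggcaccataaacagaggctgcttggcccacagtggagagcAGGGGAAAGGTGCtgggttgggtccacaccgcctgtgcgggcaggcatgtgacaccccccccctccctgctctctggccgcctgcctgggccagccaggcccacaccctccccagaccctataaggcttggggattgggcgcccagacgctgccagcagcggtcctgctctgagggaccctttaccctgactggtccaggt
Cidec first promoter, chr6:113435711-113436010, minus strand: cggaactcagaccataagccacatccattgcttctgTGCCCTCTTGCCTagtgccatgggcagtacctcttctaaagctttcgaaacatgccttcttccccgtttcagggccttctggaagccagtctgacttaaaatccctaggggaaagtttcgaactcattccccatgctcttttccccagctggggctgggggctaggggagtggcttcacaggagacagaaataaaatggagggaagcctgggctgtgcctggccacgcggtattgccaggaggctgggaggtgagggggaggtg
Plin2 promoter, chr4:86670010-86670309, minus strand: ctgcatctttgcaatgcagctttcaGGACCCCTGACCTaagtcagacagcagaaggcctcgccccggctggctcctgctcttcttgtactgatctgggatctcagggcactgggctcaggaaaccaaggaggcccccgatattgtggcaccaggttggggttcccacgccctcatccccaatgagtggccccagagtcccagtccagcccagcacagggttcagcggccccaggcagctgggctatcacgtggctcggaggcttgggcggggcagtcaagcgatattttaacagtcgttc
Cd36 promoter, chr5:17835847-17836146, minus strand: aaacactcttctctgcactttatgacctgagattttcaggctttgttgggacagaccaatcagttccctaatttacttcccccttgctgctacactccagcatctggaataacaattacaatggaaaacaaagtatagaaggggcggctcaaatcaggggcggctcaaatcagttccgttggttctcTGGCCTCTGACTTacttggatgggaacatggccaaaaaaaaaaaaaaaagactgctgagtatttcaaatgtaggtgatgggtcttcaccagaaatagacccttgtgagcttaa
Mogat1 promoter, chr1:78510810-78511109, plus strand: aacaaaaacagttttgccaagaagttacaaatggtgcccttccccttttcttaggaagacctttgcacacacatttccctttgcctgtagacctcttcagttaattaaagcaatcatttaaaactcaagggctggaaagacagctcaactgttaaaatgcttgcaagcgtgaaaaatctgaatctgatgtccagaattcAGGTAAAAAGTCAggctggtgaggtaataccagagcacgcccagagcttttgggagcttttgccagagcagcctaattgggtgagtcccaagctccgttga
In the Plin2 window the capitals begin 225 bases before the start, in that of Mogat1 51 bases before it, and in that of Cd36 63 bases before it. The single half-site AGGTCA, on either strand, was in 6 of the 12 windows (16.3% of all windows), those of Plin2, Cd36, Plin5 and Pparg, and in none of Plin4, Cidec, Mogat1 or G0s2.

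The receptor gene Pparg (chromosome 6, 115360951 to 115490399, plus strand, GRCm38) was measured at 13.6 to 28.7 CPM in GFP livers (median 19.3) and at 14.1 to 20.9 CPM in arcA livers (median 19.0). The groups overlapped: 4 of 8 GFP livers lay within the arcA range, 3 above it and 1 below. The log2 fold change was -0.10 (SE 0.123, adjusted p = 0.695), and its 95% interval ran from -0.36 to 0.16. The mean was 19.8 ± 4.73 CPM in GFP and 18.6 ± 2.16 CPM in arcA livers (SD, n = 8 each). GFP 7 was the highest liver and GFP 3 the lowest, and without GFP 7 the log2 fold change was -0.00059; it was -0.17 without GFP 3, -0.056 without GFP 6 and -0.046 without arcA 4. Pparg has several annotated starts, and counts per gene do not tell its isoforms apart.

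**Figure D2:**
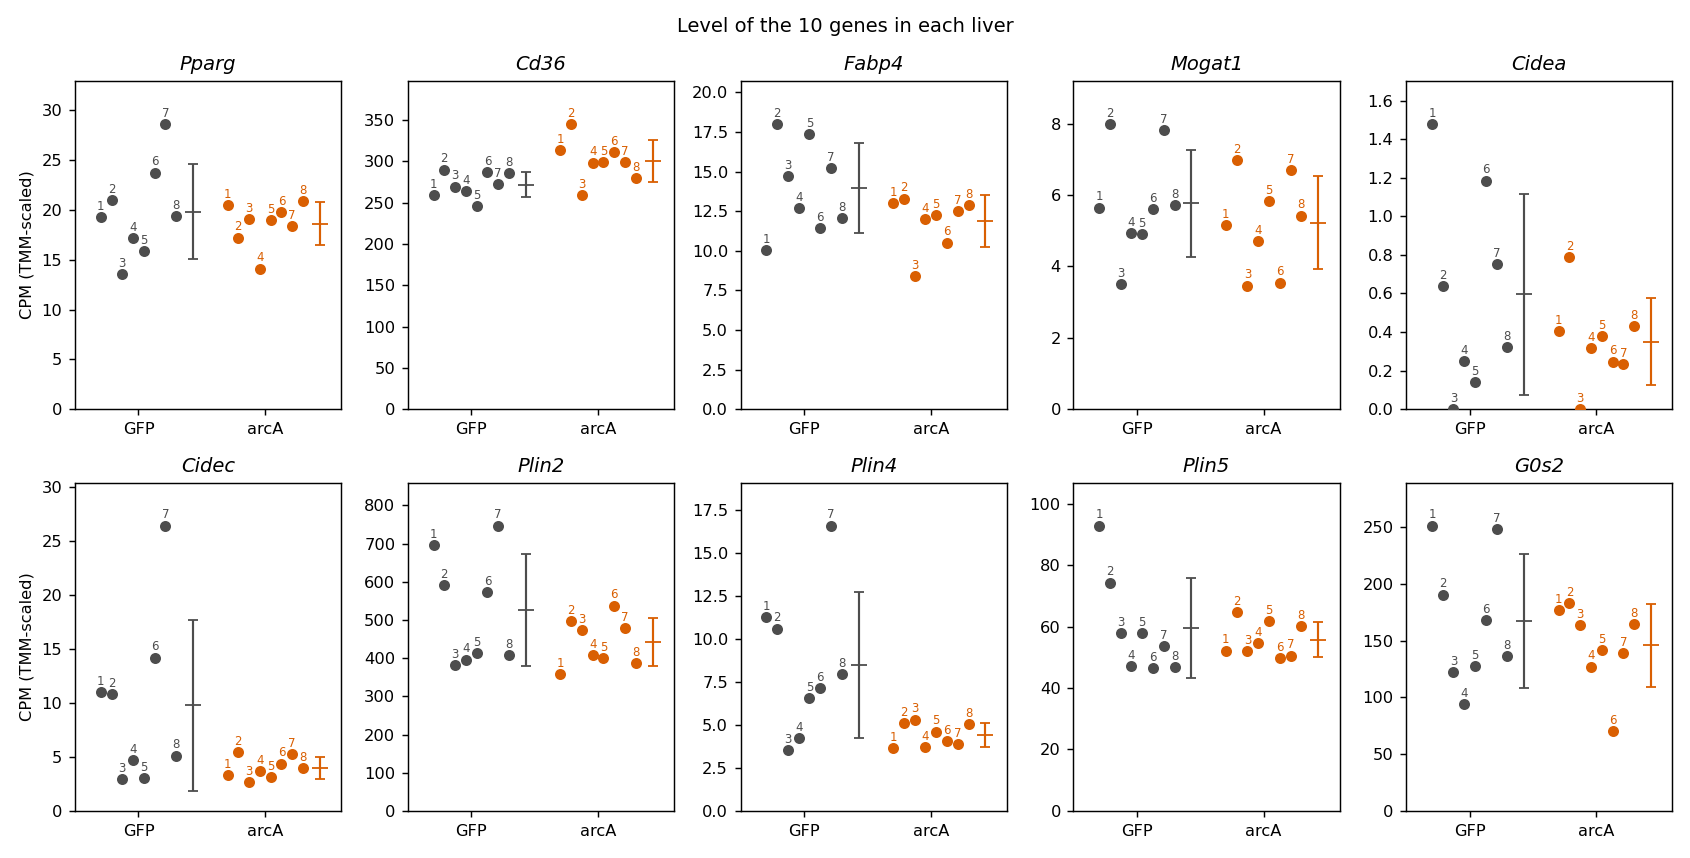
CPM of each gene (vertical axis, linear from 0) in the 8 GFP livers (grey) and 8 arcA livers (orange), with the replicate number beside each point and the mean ± SD at the right of each group. GFP 7 is the highest liver for Pparg, Cidec, Plin2 and Plin4, and the arcA livers of Cidec and Plin4 sit together at 2.68 to 5.43 and 3.66 to 5.31 CPM.

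Of the genes of fatty acid uptake and binding, Cd36 encodes a membrane receptor that takes up long-chain fatty acids and Fabp4 the fatty acid carrier of fat cells and macrophages. Cd36 (chromosome 5, 17781690 to 17888801) had 246 to 290 CPM in GFP livers (median 271) and 259 to 345 CPM in arcA livers (median 299). In 7 of 8 arcA livers it was above the GFP median, with arcA 3 as the exception, and 1 GFP liver lay below the lowest arcA liver. The fitted log2 difference was 0.15 (SE 0.0577, adjusted p = 0.114), with a 95% interval of 0.026 to 0.27. The call was reached without arcA 3 (0.17, adjusted p = 0.0484), without arcA 3 and 8 (0.19, adjusted p = 0.0307) and with surrogate variables (0.17, adjusted p = 0.0265).

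Fabp4 (chromosome 3, 10204088 to 10208576) had 10.1 to 18.0 CPM in GFP livers (median 13.7) and 8.39 to 13.3 CPM in arcA livers (median 12.4). All 8 arcA livers lay below the GFP median, and 4 GFP livers lay above the highest arcA liver, yet the other 4 lay within the arcA range. On the log2 scale the difference was -0.23 (SE 0.117, adjusted p = 0.228). The 4 highest GFP livers for Fabp4 were GFP 2, 3, 5 and 7, which include the 3 libraries with the largest share of Gm42418. Without GFP 2, 3 and 5 the difference of Fabp4 was -0.061 (adjusted p = 0.801). When scaled on hepatocyte markers it was -0.44 and passed (adjusted p = 0.0136). That scaling moved the median of all genes by -0.21, with 73 genes called higher and 4682 lower.

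Mogat1 encodes monoacylglycerol acyltransferase, which joins a fatty acid to monoacylglycerol on the way to triglyceride. Its gene (chromosome 1, 78510991 to 78538173) had 3.51 to 8.00 CPM in GFP livers (median 5.63) and 3.46 to 6.98 CPM in arcA livers (median 5.29). The ranges overlapped in 6 of 8 GFP livers, and the log2 fold change was -0.15 (SE 0.168, adjusted p = 0.644, 95% interval -0.50 to 0.20). With 1 library left out it ranged from -0.23, without GFP 3, to -0.073, without GFP 7, and was -0.083 without GFP 2, -0.081 without arcA 3 and -0.099 without arcA 6. Its exons share 200 bases, 12.8% of their length, with BC035947 on the opposite strand, and without a stated strand setting the reads of the pair cannot be told apart.

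The perilipins coat lipid droplets. Plin2 covers the droplets of most cells including hepatocytes, Plin5 links droplets to mitochondria in fat-burning tissues, and Plin4 is best known from fat cells and muscle. Plin4 and Plin5 are neighbours on chromosome 17, on the same strand and 1797 bases apart (Plin4 56100591 to 56109803, Plin5 56111601 to 56117596). Plin4 had 3.51 to 16.6 CPM in GFP livers (median 7.55) and 3.66 to 5.31 CPM in arcA livers (median 4.33). Of the GFP livers, 6 lay above the highest arcA liver, 1 within the arcA range and 1, GFP 3, below it, and all 8 arcA livers lay below the GFP median.

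On the log2 scale Plin4 fell, by a fitted -0.95 (SE 0.257, edgeR adjusted p = 0.0260, 95% interval -1.50 to -0.41). Its mean was 8.48 ± 4.25 CPM in GFP and 4.42 ± 0.681 CPM in arcA livers (SD, n = 8 each). Counts were 2945 over the GFP and 1448 over the arcA group. Without GFP 7, the highest liver at 16.6 CPM, the log2 fold change was -0.74 (adjusted p = 0.0390). The call was lost without arcA 1 (adjusted p = 0.0517). It was also lost in 3 of 13 other settings, among them no filter on low counts (adjusted p = 0.0547) and surrogate variables (-0.66, adjusted p = 0.0538).

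Plin2 (chromosome 4, 86648386 to 86670060), the most abundant of the 10 in CPM, had 382 to 747 CPM in GFP livers (median 493) and 357 to 538 CPM in arcA livers (median 441). GFP 1, 2, 6 and 7 lay above all arcA livers, at 572 to 747 CPM, and the other 4 lay within the arcA range at 382 to 413 CPM. The fitted difference on the log2 scale was -0.25 (SE 0.145, adjusted p = 0.313, 95% interval -0.55 to 0.057). It passed when libraries were scaled on hepatocyte markers (-0.47, adjusted p = 0.0411), a scaling that moved the median of all genes by -0.21. Without GFP 7 it was -0.16 (adjusted p = 0.544), and with surrogate variables it was -0.11 (adjusted p = 0.345).

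Plin5 had 46.5 to 92.9 CPM in GFP livers (median 55.7) and 49.7 to 64.7 CPM in arcA livers (median 53.4). Its highest livers were GFP 1 and GFP 2, at 92.9 and 74.4 CPM, and 3 GFP livers lay below every arcA liver. The log2 fold change was -0.10 (SE 0.131, adjusted p = 0.710), and without GFP 1 it was 0.022, without GFP 2 -0.058 and without GFP 8 -0.15. Among the neighbouring pair, then, Plin4 passed the test and Plin5 did not. Whether the differences of the pair differ from each other was not tested.

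CIDE proteins gather at contacts between droplets and let small droplets feed larger ones, and Cidea and Cidec are fat cell genes that appear in fatty liver. Cidec (chromosome 6, 113424634 to 113435760) lies on the same chromosome as Pparg, 1925190 bases away. It had 2.96 to 26.4 CPM in GFP livers (median 7.97) and 2.68 to 5.43 CPM in arcA livers (median 3.83). GFP 7 and GFP 6 had 26.4 and 14.2 CPM, and GFP 1 and GFP 2 were also above the highest arcA liver, and the other 4 GFP livers lay within the arcA range. The highest GFP liver was 8.94 times the lowest, and the highest arcA liver 2.03 times the lowest.

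The log2 fold change of Cidec was -1.31 (SE 0.418, adjusted p = 0.0579, 95% interval -2.21 to -0.42), with means of 9.78 ± 7.92 CPM in GFP and 3.98 ± 0.984 CPM in arcA livers (SD, n = 8 each). All 8 arcA livers lay below the GFP median of Cidec. Cidec stayed short of the threshold in 10 of 13 other settings and in 13 of 16 fits without 1 library. The gene passed with DESeq2 (-1.31, adjusted p = 0.0155), without GFP 3, 4 or 5 singly (adjusted p = 0.0291, 0.0454 and 0.0329) and without GFP 2, 3 and 5 (-1.64, adjusted p = 0.0195). It also passed when libraries were scaled on hepatocyte markers (-1.56, adjusted p = 0.0183), a scaling that moved the median of all genes by -0.21. Without GFP 7 the value was -0.91 (adjusted p = 0.119), and with surrogate variables it was -0.41 (adjusted p = 0.0525).

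Cidea (chromosome 18, 67343604 to 67367785) was near the limit of detection, with 214 counts over the GFP and 112 over the arcA group. GFP livers had 0 to 1.48 CPM (median 0.479) and arcA livers 0 to 0.788 CPM (median 0.348). GFP 3 and arcA 3 had 0 counts, which allows up to 0.120 and 0.0711 CPM, a limit of 3 counts that covers counting error only and would be higher if both mates of a fragment were counted. GFP 1 and GFP 6 were the highest livers, the only ones above every arcA liver. The log2 fold change was -0.83 (SE 0.592, adjusted p = 0.428), with a 95% interval from -2.08 to 0.42. Without GFP 1 it was -0.50 (adjusted p = 0.655), and with surrogate variables it turned to 0.38 (adjusted p = 0.619).

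G0s2 encodes a small inhibitor of ATGL, the lipase that opens triglyceride breakdown. The gene (chromosome 1, 193272161 to 193273217) had 93.9 to 251 CPM in GFP livers (median 152.2) and 70.2 to 183 CPM in arcA livers (median 152.5). GFP 1, 7 and 2 lay above every arcA liver, the first 2 at 251 and 248 CPM, and arcA 6 was the lowest of all. Between groups the log2 difference was -0.20 (SE 0.224, adjusted p = 0.648, 95% interval -0.68 to 0.28). It was -0.092 without GFP 1, -0.096 without GFP 7, -0.11 without arcA 6 and -0.30 without GFP 4.

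Set per kilobase of the longest coding transcript, the order of levels in GFP livers was led by Plin2 at 279 ± 77.2 and G0s2 at 192 ± 67.4 CPM per kb (SD, n = 8), whose ranges overlapped. Cd36 followed at 79.9 ± 4.53 and Plin5 at 30.0 ± 8.20 CPM per kb, each apart from its neighbours in the order. The lower 6 followed as Fabp4, Pparg, Cidec, Mogat1, Plin4 and Cidea, from 15.6 ± 3.18 to 0.534 ± 0.468 CPM per kb, and each overlapped with the next. In arcA livers Mogat1 (4.26 ± 1.06 CPM per kb) stood above Cidec (2.32 ± 0.572 CPM per kb), with overlapping ranges; the other 8 genes kept their places.

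The spread between livers was larger in the GFP group for most of the 10 genes. The SD of log2 CPM was larger in GFP than in arcA livers for 9 of 10 genes, all but Cd36, beside 53.4% of all genes tested. Cidec had an SD of 1.13 in GFP and 0.352 in arcA livers on the log2 scale, and Plin4 of 0.735 and 0.220. The median SD over the 10 genes was 0.386 in GFP and 0.220 in arcA livers, beside 0.204 and 0.191 over all genes. This is a description, without a test.

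The same GFP livers were high for several of the genes. GFP 1, 2, 6 and 7 were the 4 highest GFP livers for Cidec, Cidea, Plin2 and G0s2, which makes 4 of the 10 genes, and GFP 2 was among the 4 highest for all 10. For Plin4 and Mogat1 the 4 highest were GFP 1, 2, 7 and 8. The lowest of these 4 livers had 10.8 CPM of Cidec and 572 CPM of Plin2, and the next liver down 5.12 and 413 CPM. Of 45 pairs of the genes within the GFP livers, 2 passed with Pearson's r, Pparg with Cidec and Plin2 with G0s2 (exact permutation over 8 livers, adjusted p = 0.0134 and 0.0313 over the 90 pairs of both groups), and 0 with Spearman's rho (adjusted p = 0.0502 for both pairs). With library size alone as the scaling, 17 pairs passed in GFP livers and 0 in arcA livers. Since the GFP values of Cidec and Plin2 fell into sets of 4 livers each, too few to test within, no coefficient is given for these pairs. In arcA livers 0 of 45 pairs passed, with 4 at an unadjusted exact p under 0.05, against 19 in GFP livers. Pairs of other genes were not counted, so whether this difference is particular to the 10 genes was not tested.

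**Figure D3:**
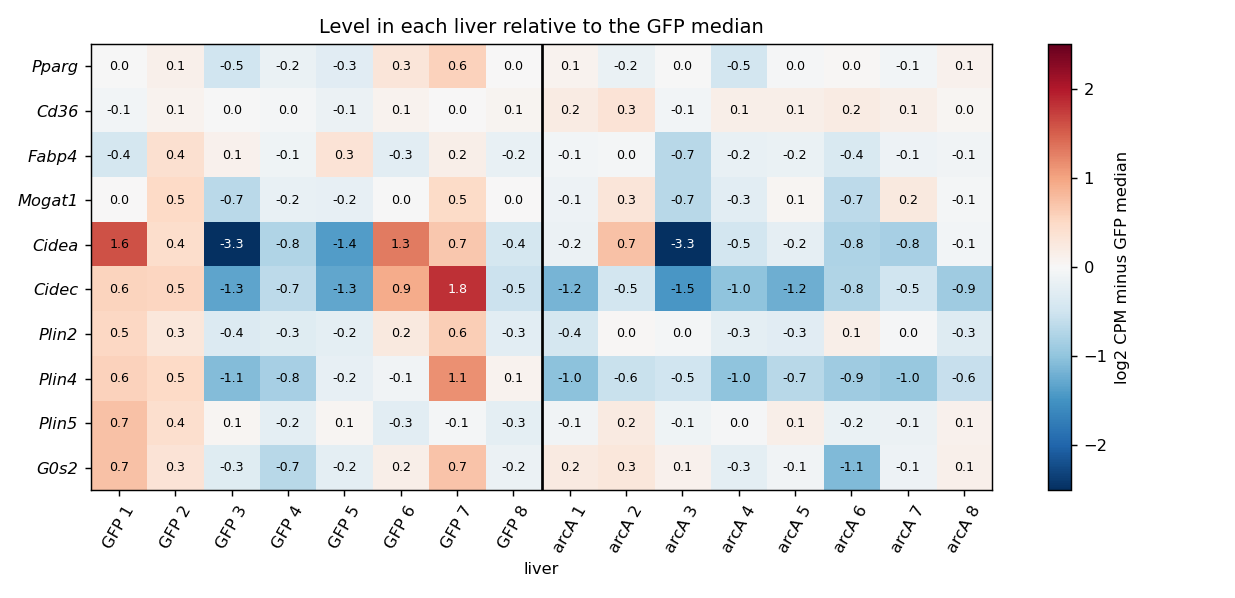
Log2 CPM of each gene (rows) in each liver (columns) minus the median of the 8 GFP livers, with the value printed in each cell; the colour scale ends at 2.5 in either direction. GFP 7 stands 1.8 above the GFP median for Cidec and 1.1 for Plin4, while all arcA livers are below it for both; the values of -3.3 for Cidea are livers with 0 counts.

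The highest and lowest GFP livers also differed in depth. GFP 7 had the most counts (53520828) and the highest Cidec, Plin2 and Plin4 values, and GFP 3 the fewest counts (28912563) and the lowest values of these 3 genes among GFP livers. The summed level of 7 B and plasma cell markers was 300.3 CPM in GFP 7, 182.5 in GFP 1 and 99.6 in GFP 6, against 51.5 to 84.9 CPM in the other GFP livers, GFP 2 among them, and 1.63 to 2.63 CPM in arcA livers. All 4 tested markers of this list fell (median -4.42). GFP 7 also had the highest GFP sums of T and natural killer cell (22.5 CPM) and Kupffer cell and macrophage markers (502.6 CPM). The same held for lipid-associated macrophage (913.5 CPM) and stellate cell markers (431.9 CPM). Next highest GFP livers had 22.1, 425.0, 906.2 and 429.0 CPM, in that order. For the monocyte, endothelial, cholangiocyte, fat cell and hepatocyte sums other GFP livers were highest, as GFP 8 for the endothelial sum, at 226 CPM. The T and natural killer cell sum was lowest in GFP 2, at 9.66 CPM. The part of depth or of these cells in the levels of the 10 genes was not tested.

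Several immune cell marker lists held genes that were lower in arcA livers. Of 10 tested markers of lipid-associated macrophages 6 fell (median log2 fold change -1.68). Their summed level, 809 to 914 CPM in GFP and 793 to 946 CPM in arcA livers, was mostly Ctsd (means of 436 and 423 CPM) and Ctsl (365 and 386 CPM), lysosomal protease genes of many cell types. Of 12 Kupffer cell and macrophage markers 7 fell (median -0.69), with sums of 316 to 503 and 130 to 446 CPM, and arcA 3, at 446 CPM, was the one arcA liver above 264.5 CPM. Of 8 monocyte markers 5 fell (median -1.01). Their sums, 937 to 1277 and 1082 to 1584 CPM, were nearly all Fn1, the fibronectin gene that hepatocytes also express, with means of 1101 CPM in GFP and 1311 CPM in arcA livers. All 10 tested T and natural killer cell markers fell (median -3.27, sums of 9.66 to 22.5 and 0.732 to 3.41 CPM). Of 12 endothelial markers 1 fell (median -0.23, sums of 152 to 226 and 141 to 199.8 CPM), and of 12 stellate cell markers 7 fell (median -0.42, sums of 384 to 432 and 266 to 402 CPM). None of 5 tested cholangiocyte markers passed (median 0.12, sums of 16.03 to 28.8 and 17.6 to 47.1 CPM), and 4 of 15 hepatocyte markers rose (median 0.21). Macrophages and endothelial cells also express Cd36 and Fabp4, and the part of these cells in the values was not tested.

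Of the fat cell markers, Adipoq, Plin1 and Lep were at or near 0. Adipoq, the fat cell hormone adiponectin, had 0 to 8 counts per library and 0 in 6 of 16 libraries. Plin1, the fat cell perilipin, had 0 counts in 14 of 16 libraries and at most 4, in GFP 7, and Lep (leptin) had 0 in 13 of 16 and at most 3. Aqp7, a glycerol channel of fat cells, had 37 counts in GFP 7, the highest of the 16 libraries. Of the 8 fat cell markers 3 were tested and 2 of these were higher in arcA livers, Retn and Car3, the latter also a gene of hepatocytes. The other tested marker, Cfd, had 4 to 81 counts in GFP and 0 to 40 in arcA livers, with a highest GFP level of 1.35 CPM. Its log2 fold change was -0.072 (edgeR adjusted p = 0.960). Retn rose by 1.68 (adjusted p = 0.00560), at 0.298 ± 0.205 CPM in GFP and 0.958 ± 0.386 CPM in arcA livers (SD, n = 8 each). The summed level of the 8 markers, 1993 to 2419 CPM in GFP and 2349 to 3250 CPM in arcA livers, was nearly all Car3, with means of 2204 and 2847 CPM.

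Other genes of the pathway were read from lists. Of 17 tested lipid droplet proteins outside the 10 genes, 1 rose and 0 fell with edgeR, at a median log2 fold change of 0.025. The gene that rose was Bscl2 (seipin, which organises droplet formation), by 0.15 (SE 0.0417, adjusted p = 0.0218), and it lost the call in 8 of 13 other settings and in 4 of 16 fits without 1 library. Of 13 genes of triglyceride breakdown, 1 rose and 0 fell. It was Ces1f, a liver carboxylesterase, with a rise of 0.54 (SE 0.0616, adjusted p = 1.62e-05). Ces1f had 276 ± 25.5 CPM in GFP and 402 ± 24.6 CPM in arcA livers (SD, n = 8 each). It has close paralogs, and how reads were divided among these is uncertain. Pnpla2, which encodes the lipase ATGL that G0s2 protein inhibits, was at -0.15 in log2 terms (adjusted p = 0.214). It passed without GFP 3 (-0.20, adjusted p = 0.0491) and without GFP 2, 3 and 5 (-0.27, adjusted p = 0.0189). Scaled on hepatocyte markers, which moved the median of all genes by -0.21, it also passed (-0.36, adjusted p = 0.00747).

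Of 15 genes of acylglycerol esterification and export, 1 rose and 0 fell, at a median of -0.038. Dgat2, which makes triglyceride from diacylglycerol, rose by 0.31 (adjusted p = 0.0173), and lost the call without GFP 2, 3 and 5 (adjusted p = 0.112), with library size alone (adjusted p = 0.0753) and when scaled on hepatocyte markers (adjusted p = 0.302). Of 16 genes of fatty acid uptake, binding and activation, 2 rose and 1 fell, at a median of 0.12. Acsl1, which activates long-chain fatty acids, rose by 0.40 (adjusted p = 0.000678) and Slc27a5, a fatty acid and bile acid activating enzyme, by 0.37 (adjusted p = 0.00482; 0.0624 when scaled on hepatocyte markers). Lpl, the lipoprotein lipase, which is also a macrophage gene, fell, by a fitted -1.62 in log2 terms (SE 0.204, adjusted p = 0.000199). Lpl had 36.3 ± 11.5 CPM in GFP and 11.9 ± 3.68 CPM in arcA livers (SD, n = 8 each), with no overlap.

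Of 16 tested PPARG targets outside the 10 genes, 2 rose and 3 fell, at a median of -0.095, beside the 0.0091 of all genes. The 3 that fell were Lpl, the cholesterol exporter gene Abcg1 (-0.86, adjusted p = 0.0100) and Apoa4, the apolipoprotein gene (-1.02, adjusted p = 0.0127), the last named after its value was seen. The genes that rose were Acsl1 and Klb, the co-receptor of FGF21, by 0.31 (adjusted p = 0.0119; 0.325 when scaled on hepatocyte markers). Lpl and Abcg1 are expressed by macrophages too, whose markers are given above.

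Of 24 partners, relatives and regulators of PPARG, 1 rose and 2 fell, at a median of -0.035. The early-response transcription factor genes Klf6 and Jun fell by 0.80 (adjusted p = 0.000275) and 0.83 (adjusted p = 0.0162), and Crebl2, a regulator of fat cell formation, rose by 0.17 (adjusted p = 0.0443). Crebl2 lost the call in 10 of 13 other settings and in 13 of 16 fits without 1 library, and Jun lost it with surrogate variables (adjusted p = 0.138). Rxra, the main DNA-binding partner of PPARG in liver, had a log2 fold change of 0.10 (adjusted p = 0.459), which was -0.094 when scaled on hepatocyte markers. Ppara, the fatty acid receptor of fasting liver, had -0.095 (adjusted p = 0.774).

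**Figure D4:**
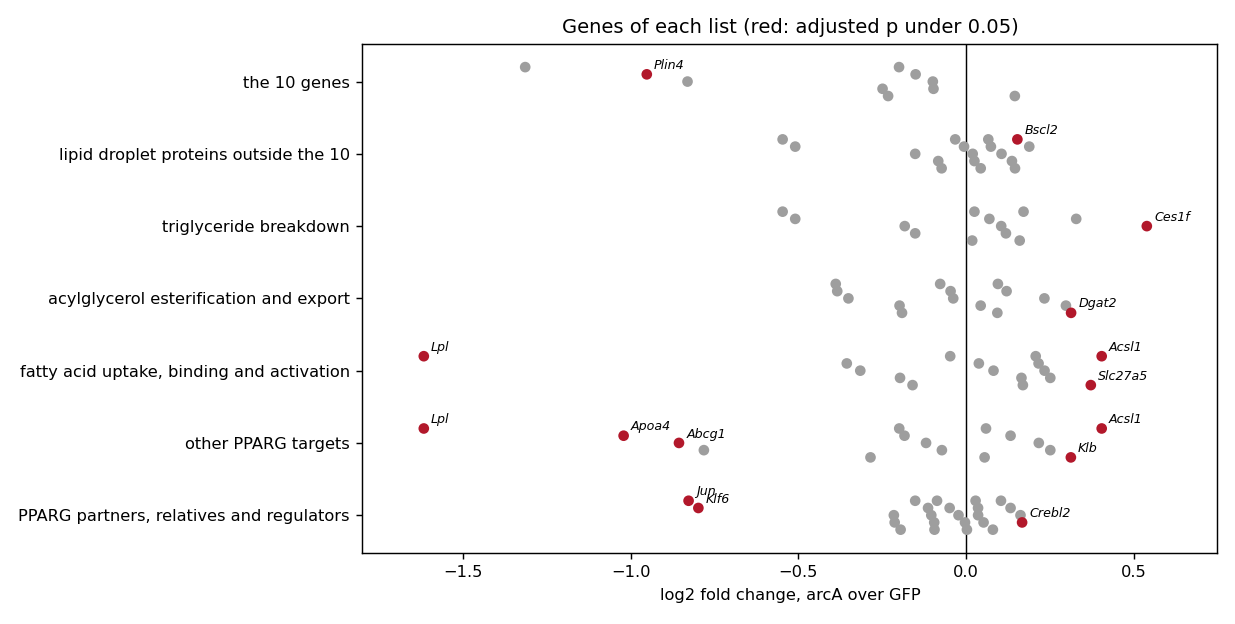
Fitted log2 fold change of arcA over GFP (horizontal axis, log2 scale) for each tested gene of the 10 and of 6 pathway lists (rows, points offset for legibility), with genes of adjusted p under 0.05 in red and named. Most points of each list lie within 0.5 of 0; Lpl at -1.62 is the farthest red point below 0 and Ces1f at 0.54 the farthest above.

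The genes whose level varied most like that of Pparg were sought over the 16 libraries, after centring each group on its mean. The 5 highest of 11190 genes by Pearson's r were Cntnap1 (0.920), Mthfd1l (0.892), Gca (0.887), Themis (0.844) and Ermp1 (0.839). For Plin4 they were Cars (0.899), Srxn1 (0.881), Dgkz (0.831), Heyl (0.830) and Plk2 (0.829). These values describe the 16 libraries, which also share differences in depth. GFP livers weigh more in them than arcA livers. The SD of log2 CPM was 0.735 in GFP and 0.220 in arcA livers for Plin4, and 0.336 and 0.180 for Pparg. Of the 10 genes found in this search, Themis (-0.94, adjusted p = 0.0399), Srxn1 (-0.48, adjusted p = 0.00618) and Heyl (-0.68, adjusted p = 0.0206) were lower in arcA livers.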

How the data were processed

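Liver RNA of 16 db/db mice (8 GFP, 8 arcA) was sequenced after oligo-dT selection. The authors deposited a table of unnormalized whole-number counts, with gene symbols as lines and libraries as columns. The submitters' processing notes name bcl2fastq, STAR 2.5.1a, Subread with featureCounts 1.4.6-p5, and GRCm38. Annotation release, strand setting and mate handling: not given in the sources used here. Of the counts from 1 to 20, 69.8% were even, so counts may not be independent fragments. The table held 40757 lines, of which 348 exact copies were removed; lines sharing a symbol were summed. Coordinates and transcript lengths came from GENCODE M21 (GRCm38) by symbol.

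All genes were fitted with edgeR 4.0.16 (R 4.3.3; TMM, filterByExpr, robust quasi-likelihood F test, group as the only term), with Benjamini-Hochberg adjustment. Log2 CPM used a prior count of 2. Standard errors are the fold change divided by the root of F. The 10 genes and all lists were chosen with earlier results of these data known. Named from each pathway list were up to 4 genes past the threshold, plus Lpl, Plin1, Adipoq, Pnpla2, Ppara and Rxra. Pairs of genes were compared by exact two-sided permutation within groups. No gene of the 10 was below the filter, so the permutation test planned for such genes was not needed. Libraries of one group differed far beyond sampling noise (chi-square per gene at least 19.6 over 56 pairs), so each counted once. The edgeR p-values weigh the difference between the groups against the spread between livers of a group. The fit was tested on simulated data. Alternatives were RLE, upper-quartile, library-size and hepatocyte-marker scaling, no filter, a filter of 1 CPM in 8 libraries, DESeq2 1.42.0, limma 3.58.1 voom, a replicate block, surrogate variables (sva 3.50.0), halved counts, and libraries left out.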

Additional observations from a re-analysis of the deposited data

How the results depend on the processing

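The number of the 10 genes called lower, 1 with edgeR, was 0 with no filter and with surrogate variables, 2 with DESeq2 and without GFP 2, 3 and 5, and 4 when scaled on hepatocyte markers, and ranged from 0 to 2 when 1 library was left out. The number called higher, 0 with edgeR, was 1 (Cd36) with surrogate variables and without arcA 3 and 8, and ranged from 0 to 1 when 1 library was left out. Over all genes, 617 were higher and 951 lower with edgeR. Rises were 39.3% of these calls, 24% with library size alone (253 higher, 800 lower) and 1.54% with hepatocyte-marker scaling (73 higher, 4682 lower). A filter of 1 CPM in 8 libraries gave 407 higher and leaving out GFP 2, 3 and 5 gave 369 higher. Leaving out 1 library gave 389 (without GFP 2) to 638 higher and 731 (without GFP 7) to 1046 lower.

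Plin4 kept its direction in all 13 other settings and its call in 10. It lost the call with no filter (-0.95, adjusted p = 0.0547) and with surrogate variables (-0.66, adjusted p = 0.0538), and with the replicate block described below. Leaving out 1 library, it ranged from -1.07 to -0.74 and was lost without arcA 1 (adjusted p = 0.0517). Cidec reached the threshold in 3 of 13 other settings: when scaled on hepatocyte markers (-1.56), with DESeq2 (-1.31) and without GFP 2, 3 and 5 (-1.64). It ranged from -1.45 to -0.91 without 1 library and was called in 3 of these 16 fits. On hepatocyte markers, Fabp4 (-0.44) and Plin2 (-0.47) were called and Cd36 turned to -0.063, as did Bscl2 (-0.056), Crebl2 (-0.035) and Rxra (-0.094); this scaling moved the median of all genes by -0.21, a shift larger than each of these 4 values. Cd36 was called with surrogate variables (0.17) and without arcA 3 and 8 (0.19), and ranged from 0.11 to 0.17 without 1 library. Surrogate variables turned Cidea (0.38), G0s2 (0.064), Mogat1 (0.043), Plin5 (0.0035) and Pparg (0.051) above 0, none of them called. Plin5 ranged from -0.15 to 0.022 without 1 library, the latter without GFP 1. The pairs of genes past the threshold in GFP livers numbered 17 with library size alone in place of 2. The cause of these changes was not tested.

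With the replicate number as a block, 0 of the 10 genes were called, Plin4 had -0.82 (adjusted p = 0.0914), and 592 genes were higher and 876 lower. The numbers are not stated to pair the mice: same-numbered libraries correlated at -0.049 to 0.16 after centring, and 2 of 8 GFP and 1 of 8 arcA libraries correlated best with their own number. Cidea, with 214 and 112 counts, is limited by depth, and was below the filter of 1 CPM and with counts halved.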
